A study of Mus musculus with 9 samples.

Results

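The genes described here are 10 of the 22831 genes in a deposited count table of C2C12 myotubes: Ulk1, Atg13 and Atg101 of the autophagy initiation complex, Atg7, Atg3, Atg10, Atg5, Atg12 and Atg16l1 of the conjugation machinery, and Sqstm1, the cargo receptor also called p62. They were chosen by gene symbol, by role in autophagosome formation, and with earlier results of these data known, among them a low Atg7 count after palmitic acid. Their values are therefore given as a description, with no p of their own. C2C12 is a mouse myoblast line, labelled wild type, that fuses into multinucleated myotubes in low serum, here over 5 to 7 days in medium with 2% horse serum. RNA was sequenced as stranded mRNA libraries from 3 groups of 3: control myotubes with no stated treatment, myotubes given 200 µM palmitic acid, and myotubes given 200 µM palmitic acid together with 1000 µM carnitine. The treatment lasted 48, in a unit that the labels garble. No vehicle for the fatty acid and no group with carnitine alone is described in the labels, and nothing says that replicates came from separate cultures, so the spread between them may be technical.

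Macroautophagy encloses cytoplasm in a double membrane, the autophagosome, and delivers it to the lysosome. The kinase Ulk1, held with Atg13, Atg101 and Rb1cc1 (FIP200), starts the process when nutrients are short and is restrained by mTORC1 when they are ample. A pair of ubiquitin-like reactions then follows. The E1-like enzyme Atg7 activates Atg12 and the LC3 family, Atg10 joins Atg12 to Atg5, Atg3 joins LC3 to phosphatidylethanolamine, and the Atg12-Atg5-Atg16l1 complex directs Atg3 to the membrane. Sqstm1 binds ubiquitinated cargo and LC3 and is itself degraded with the cargo, so its protein is often read as a measure of flux. In skeletal muscle autophagy clears damaged organelles and protein.

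The libraries held 2.31 to 5.14 M counts, with the deepest being palmitic acid replicate 1. Myotube markers (8 of 8 tested) summed to 8854 to 11840 counts per M (CPM, scaled with edgeR's TMM factors) in control, 13209 to 13528 with palmitic acid and 10042 to 11188 with carnitine. Reserve cell or myoblast markers (5 of 6 tested) summed to 46.7 to 48.1 CPM in control, 50.7 to 71.9 with palmitic acid and 41.6 to 61.1 with carnitine. Their sum was thus above control with palmitic acid without overlap, while the carnitine libraries overlapped both groups. Over the 9 libraries proliferation markers (4 of 4) summed to 74.7 to 115 CPM, and osteoblast markers (1 of 4, Runx2) to 59.1 to 102. Fibroblast markers (4 of 4), which C2C12 cells also express, summed to 6123 to 7201 CPM with palmitic acid, above the 4176 to 6009 in control and the 4949 to 5883 with carnitine without overlap. The myotube sum was likewise above both. Of all genes tested, 11.7% were higher than control with palmitic acid without overlap, and 18.3% lower with carnitine added. Acta1, Des and Myh3 made up most of the myotube sum, and Col1a1 and Col3a1 nearly all of the fibroblast sum. Of the myotube and fibroblast markers, only Acta1, Des, Mymk and Col3a1 were singly above control without overlap, and Tnnt3 was lower with palmitic acid than with carnitine. The reserve cell marker Id1 was also above control without overlap in CPM. Its counts were low, at 8, 6 and 19 in control and 65, 40 and 38 with palmitic acid. Of the macrophage markers 1 of 4 was tested. Their sum was 193 to 320 CPM in control, 63.4 to 200 with palmitic acid and 251 to 285 with carnitine, nearly all of it Csf1r, while Adgre1 had at most 2 counts and Cd68 at most 10 in a library. Ptprc and the adipocyte markers were not found by symbol in the count table, so no levels are given for them. The part of other cell types in the results was not tested. Counts were also divided unequally between gene classes defined by strand annotation. The strand of the reads was not measured, and strand makeup below means the ratio of these classes. The sense-to-opposite ratio, the summed counts of protein-coding genes whose exons face no annotated gene (unopposed genes) over those of noncoding genes lying opposite protein-coding ones, was 0.685, 0.633 and 1.18 in control replicates 1, 2 and 3. It was 3.48, 1.21 and 1.22 with palmitic acid and 0.831, 0.653 and 0.701 with palmitic acid + carnitine. The strand setting of the counting is not given in the sources used here. In bulk RNA, fewer cells of a type and less RNA per cell cannot be told apart.

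Levels between genes were compared per length, as the authors' FPKM (counts per kilobase and M counts). Sqstm1 was the most abundant, at 87.8 ± 26.7 FPKM (mean ± SD over 9 libraries), and was above every other gene of the set in all 9 libraries. Atg7 came next at 18.5 ± 8.04, followed by Atg101 at 9.78 ± 7.59, Ulk1 at 8.32 ± 4.26, Atg3 at 7.06 ± 2.17 and Atg13 at 5.26 ± 2.07. Atg5 (2.41 ± 1.22), Atg16l1 (1.72 ± 0.65), Atg12 (1.22 ± 0.64) and Atg10 (0.38 ± 0.34) were the lowest. Only the step from Sqstm1 to Atg7 had ranges that did not meet over the 9 libraries. Atg7 stood above Atg101 in 6 of 9, in each control and each carnitine library but in none with palmitic acid. Among the lower neighbours, Atg101 was above Ulk1 and Ulk1 above Atg3 in 6 of 9 each, Atg3 above Atg13 in 8 of 9, Atg13 above Atg5 in 9 of 9, and Atg5 above Atg16l1, Atg16l1 above Atg12 and Atg12 above Atg10 in 7 of 9 each.

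**Figure D1:**
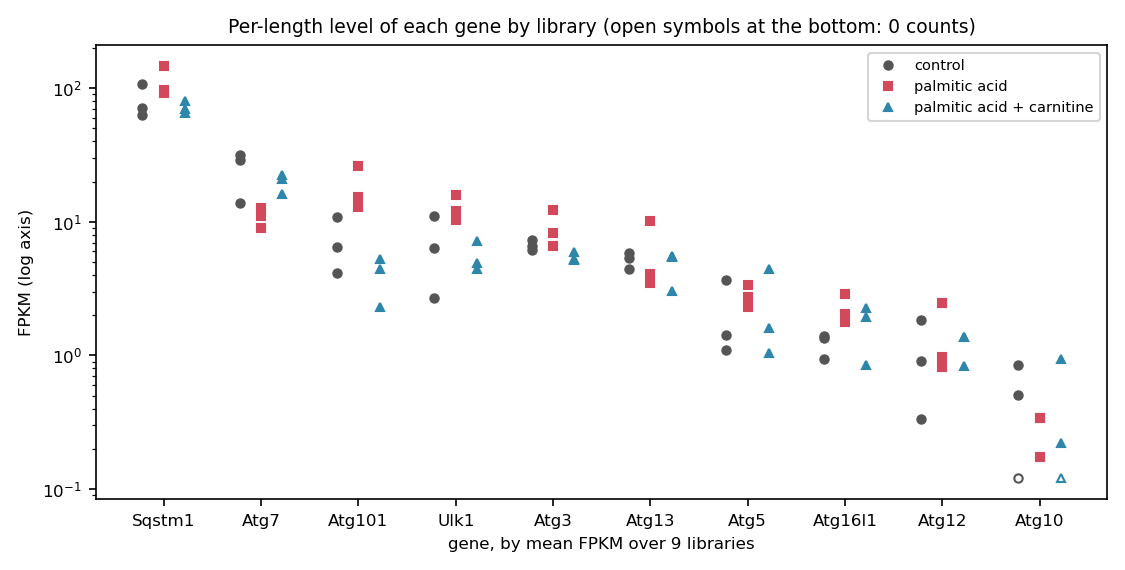
FPKM (log axis) of each of the 10 genes in each library, ordered by the mean over 9 libraries, with control as circles, palmitic acid as squares and palmitic acid + carnitine as triangles. Sqstm1, between 62.6 and 146 FPKM, stands apart from the other 9 genes, and Atg10 had libraries with 0 counts.

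Ulk1 (chromosome 5, 110932354 to 110957963, minus strand, GRCm39 as in all positions of the table) encodes the kinase that starts autophagosome formation. It had 47.2, 20.6 and 68.3 CPM in control replicates 1, 2 and 3, 68.0, 64.0 and 74.8 with palmitic acid, and 49.4, 36.8 and 32.3 with palmitic acid + carnitine. The palmitic acid libraries were all above the carnitine libraries, whereas control replicate 3 lay within the palmitic acid range and control replicate 2 was the lowest of the 9. The log2 fold change was 0.59 ± 0.35 (SE) for palmitic acid against control, -0.80 ± 0.35 for carnitine added to palmitic acid, and -0.20 ± 0.35 for palmitic acid + carnitine against control.

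Atg101 (chromosome 15, 101182153 to 101188826, plus strand), which stabilizes Atg13 in the complex, had the widest relative spread among the initiation genes. Its counts were 24, 18 and 57 in control, 215, 71 and 82 with palmitic acid, and 22, 9 and 22 with carnitine, which is 11.8, 7.72 and 16.4, then 27.7, 19.7 and 23.5, then 7.59, 4.25 and 9.34 CPM. All palmitic acid libraries were above all control and all carnitine libraries, and control and carnitine overlapped. The log2 fold changes were 0.97 ± 0.36 with palmitic acid, -1.73 ± 0.38 with carnitine added, and -0.77 ± 0.39 between palmitic acid + carnitine and control.

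Atg13 (chromosome 2, 91504963 to 91540921, minus strand), the adaptor that mTORC1 phosphorylates, did not share the pattern of the other initiation genes. It had 29.0, 22.7 and 22.5 CPM in control libraries, 29.3, 14.4 and 16.9 with palmitic acid, and 25.2, 27.9 and 14.9 with carnitine, so that the groups overlapped throughout. Its log2 fold changes were -0.27 ± 0.33, 0.15 ± 0.33 and -0.12 ± 0.34 in the order given for Ulk1. Within a library, where scaling cancels, Ulk1 had 1.63, 0.906 and 3.04 counts per Atg13 count in control, 2.32, 4.44 and 4.42 with palmitic acid, and 1.96, 1.32 and 2.17 with carnitine. Rb1cc1, the scaffold of the complex, was at 10.9 ± 2.23, 13.6 ± 3.55 and 12.6 ± 8.33 CPM in control libraries, palmitic acid and palmitic acid + carnitine (n = 3 each). It has 384 counts beside 1526 for 4732440D04Rik, a noncoding gene opposite its exons.

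**Figure D2:**
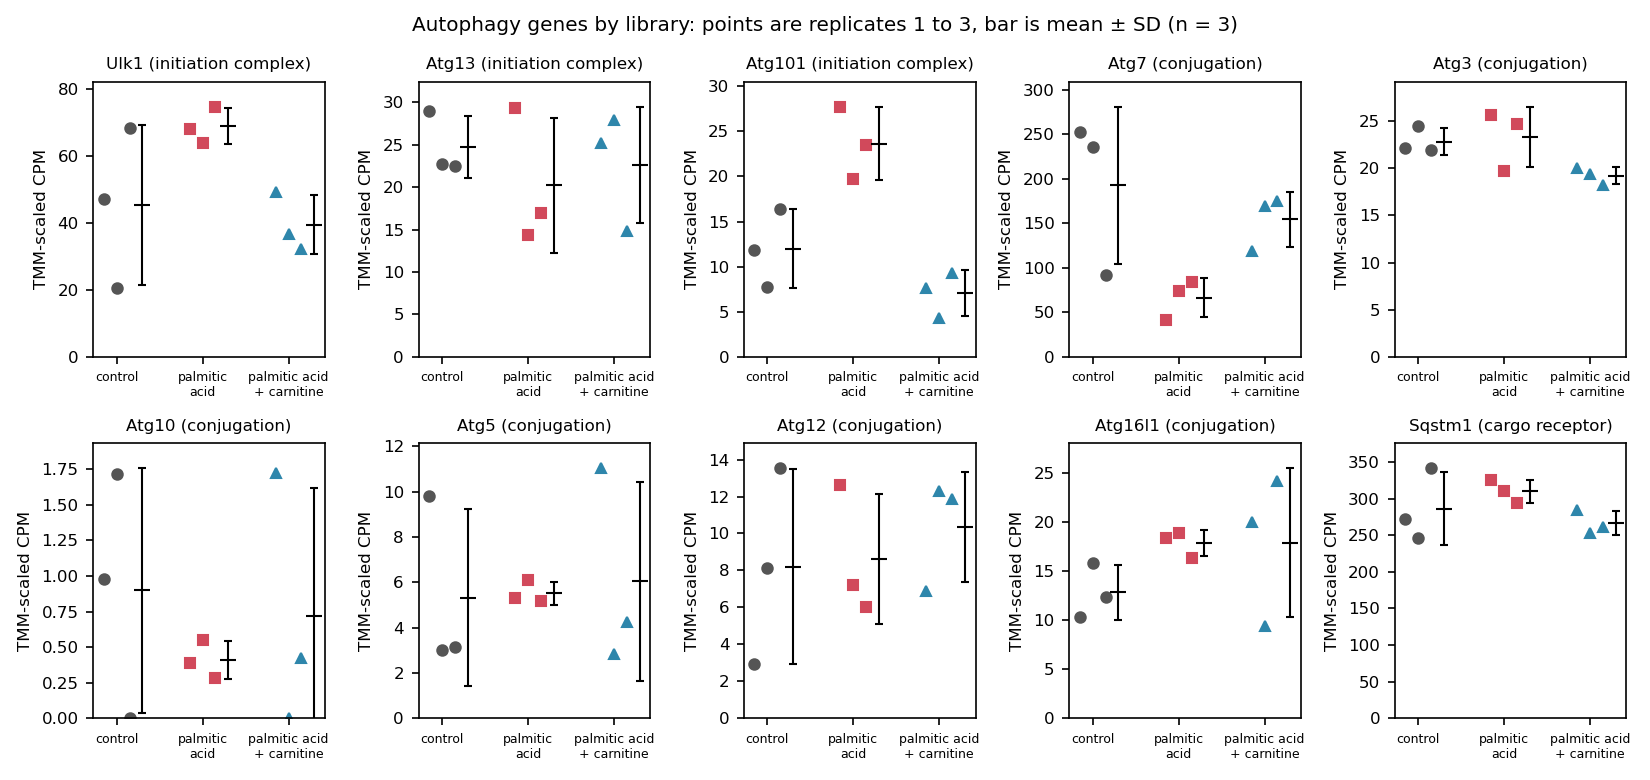
TMM-scaled CPM (linear axes from 0) of the 10 genes in the 3 groups, with points for replicates 1 to 3 and a bar for mean ± SD (n = 3). Atg101 is highest in the 3 palmitic acid libraries and Atg7 lowest there, while Atg3 spans 18.3 to 25.7 CPM over all 9 libraries.

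Atg7 (chromosome 6, 114620058 to 114837575, plus strand), the E1-like enzyme on which both conjugation reactions depend, was lowest in the palmitic acid group, where the means of Ulk1 and Atg101 were highest. Its raw counts were 513, 549 and 318 in control, 323, 265 and 292 with palmitic acid, and 345, 359 and 412 with carnitine. Scaled, the control libraries had 252, 235 and 91.6 CPM, against 41.7, 73.4 and 83.7 with palmitic acid, and 119, 170 and 175 with carnitine. All palmitic acid libraries were below all others, yet control replicate 3 lay close to them and far from the other control libraries. The log2 fold changes were -1.54 ± 0.38 with palmitic acid, 1.23 ± 0.38 with carnitine added and -0.32 ± 0.37 between palmitic acid + carnitine and control. Atg7 had 5.34, 11.4 and 1.34 counts per Ulk1 count in control, 0.613, 1.15 and 1.12 with palmitic acid, and 2.41, 4.60 and 5.42 with carnitine.

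Atg7 has a converging neighbour. No gene of GENCODE M21 lies opposite its exons, but Vgll4, a transcription cofactor gene on the minus strand (chromosome 6, 114837589 to 114946955), converges on it and ends 14 bases away. Vgll4 had 20.6, 18.0 and 25.6 CPM in control libraries, 23.4, 28.0 and 24.9 with palmitic acid, and 16.2, 22.2 and 18.3 with carnitine, in all 679 counts against 3376 for Atg7. Whether transcripts running past the end of Vgll4 were counted toward Atg7 was not tested. By Pearson's r of log2 CPM over the 9 libraries, as a description, the genes most like Atg7 among 6164 with a mean of at least 5 FPKM were Gm37376 (0.996), Rtraf (0.995), Etohd2 (0.994), Gm26524 (0.993) and Pdzd9 (0.992). Gm37376 and Gm26524 are annotated as unconfirmed transcripts, Etohd2 as a long noncoding RNA, and none of the 5 belongs to the class of unopposed protein-coding genes. The 9 points share the strand makeup of their libraries.

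Atg3 (chromosome 16, 44979148 to 45008901, plus strand), the E2-like enzyme for LC3, varied little between libraries. It had 22.1, 24.4 and 21.9 CPM in control libraries, 25.7, 19.7 and 24.6 with palmitic acid, and 20.0, 19.4 and 18.3 with carnitine. The carnitine libraries were all below the controls, by a log2 of -0.25 ± 0.26, and palmitic acid differed from control by 0.04 ± 0.25. Carnitine added to palmitic acid gave -0.28 ± 0.25.

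Atg16l1 (chromosome 1, 87683592 to 87720150, plus strand), which places the conjugate on the membrane, had 10.3, 15.9 and 12.4 CPM in control libraries, 18.3, 18.8 and 16.3 with palmitic acid and 20.0, 9.44 and 24.2 with carnitine. Palmitic acid lay above control in every library, narrowly, while the carnitine libraries spanned both groups. The log2 fold changes were 0.47 ± 0.35, 0.01 ± 0.35 and 0.48 ± 0.36 for palmitic acid against control, carnitine added, and palmitic acid + carnitine against control. Atg5 and Atg12, the partners joined by the first conjugation reaction, were thinly counted. Atg5 (chromosome 10, 44144354 to 44240287, plus strand) had 6 to 41 counts in a library and log2 fold changes of 0.08 ± 0.63, 0.16 ± 0.62 and 0.24 ± 0.64. Atg12 (chromosome 18, 46863211 to 46874647, minus strand) had 6 to 98 counts and log2 fold changes of 0.05 ± 0.51, 0.23 ± 0.50 and 0.28 ± 0.52. In both genes the groups overlapped in every comparison.

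Atg10 (chromosome 13, 91083475 to 91372087, minus strand), the E2-like enzyme for Atg12, had 18 counts in the 9 libraries together and was the one gene of the set left out by the filter on low counts. It had 2, 4 and 0 counts in control, 3, 2 and 1 with palmitic acid, and 5, 0 and 1 with carnitine. A count of 0 allows up to 0.864 CPM in control replicate 3 and 1.42 CPM in palmitic acid + carnitine replicate 2 (3 counts a library, counting error only), so no difference was detectable at this depth.

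Sqstm1 (chromosome 11, 50090193 to 50101654, minus strand) held 8955 of the 16898 counts of the 10 genes and was the best measured. It had 272, 246 and 342 CPM in control libraries, 325, 310 and 294 with palmitic acid, and 284, 253 and 261 with carnitine. The palmitic acid libraries were all above the carnitine libraries, and control overlapped both groups, with control replicate 3 the highest of the 9. The log2 fold changes were small, at 0.11 ± 0.24 with palmitic acid, -0.22 ± 0.24 with carnitine added and -0.11 ± 0.24 between palmitic acid + carnitine and control. Its 3′ end overlaps Mrnip on the other strand (chromosome 11, 50065271 to 50090942) by 750 bases of the annotated spans. Mrnip had 901 counts with 39.8 ± 10.4 CPM in control libraries, 22.5 ± 9.12 with palmitic acid and 41.0 ± 9.33 with carnitine (n = 3 each). The genes most like Sqstm1 by the same measure were Nab2 (r = 0.985), Traf4 (0.977), Nudt4 (0.976), Pak1 (0.971) and Bahd1 (0.963). All 5 are protein-coding, and 4 of them are unopposed.

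RefSeq promoter windows, from 250 bases before to 50 after a start site on GRCm38.p6, were at hand for 8 of the 10 genes, Atg12 and Atg16l1 being named only. They were searched on both strands for CACGTG, the palindromic E-box core that TFEB, a regulator of lysosome and autophagy genes, recognizes, for TGACNNNGC, the core of the antioxidant response element, and for GTAAACA, a forkhead motif. No match overlapped another. CACGTG was in the windows of Atg7, Atg3 and Atg5, and in 7.15% of all 32851 windows. TGACNNNGC was in that of Atg13 (12.4% of all) and GTAAACA in none of the 8 (3.65% of all). The windows with an E-box and those of Ulk1 and Atg101, the initiation genes with their highest mean CPM in the palmitic acid group, are shown 5′ to 3′ with the E-box in capitals. Atg7 is at chr6:114670846-114671145 and Atg3 at chr16:45158579-45158878 (plus strand), Atg5 at chr10:44268089-44268388 and Atg101 at chr15:101284051-101284350 (plus strand), and Ulk1 at chr5:110810032-110810331 (minus strand).
Atg7: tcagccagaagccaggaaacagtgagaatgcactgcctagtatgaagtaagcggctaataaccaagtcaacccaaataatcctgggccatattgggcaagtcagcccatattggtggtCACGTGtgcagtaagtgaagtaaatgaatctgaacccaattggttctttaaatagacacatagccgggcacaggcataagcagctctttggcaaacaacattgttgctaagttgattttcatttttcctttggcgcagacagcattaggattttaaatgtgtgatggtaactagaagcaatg
Atg3: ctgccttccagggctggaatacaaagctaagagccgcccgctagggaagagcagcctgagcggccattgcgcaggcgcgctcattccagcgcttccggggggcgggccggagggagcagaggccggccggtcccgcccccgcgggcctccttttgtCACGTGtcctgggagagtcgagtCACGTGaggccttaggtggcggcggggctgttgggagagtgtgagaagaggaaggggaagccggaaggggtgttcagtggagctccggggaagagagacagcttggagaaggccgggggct
Atg5: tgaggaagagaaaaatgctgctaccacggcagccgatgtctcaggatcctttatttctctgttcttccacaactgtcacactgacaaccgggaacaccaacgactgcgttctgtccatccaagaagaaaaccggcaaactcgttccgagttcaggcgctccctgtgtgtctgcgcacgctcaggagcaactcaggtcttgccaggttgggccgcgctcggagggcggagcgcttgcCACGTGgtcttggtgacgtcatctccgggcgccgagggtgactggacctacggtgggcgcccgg
Ulk1: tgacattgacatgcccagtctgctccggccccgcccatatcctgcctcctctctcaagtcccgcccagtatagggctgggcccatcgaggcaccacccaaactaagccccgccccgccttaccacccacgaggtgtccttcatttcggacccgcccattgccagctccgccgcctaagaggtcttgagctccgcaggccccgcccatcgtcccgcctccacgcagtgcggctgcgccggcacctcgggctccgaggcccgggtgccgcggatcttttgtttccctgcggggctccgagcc
Atg101: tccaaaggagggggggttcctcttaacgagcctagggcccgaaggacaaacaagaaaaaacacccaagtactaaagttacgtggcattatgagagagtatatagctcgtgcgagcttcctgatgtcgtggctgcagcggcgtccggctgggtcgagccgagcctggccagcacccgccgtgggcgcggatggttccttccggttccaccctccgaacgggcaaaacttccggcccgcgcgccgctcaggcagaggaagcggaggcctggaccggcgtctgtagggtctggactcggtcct

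The Atg7 window differed from the others in composition. It was 42.7% G or C with 4 CpG dinucleotides, against 49.0% to 73.0% and 18 to 33 CpG in the other 7 windows and medians of 52.7% and 7 over all windows. Its start site also lies 27999 bases inside the Atg7 gene as GENCODE M21 annotates it on GRCm38, while the other 7 start sites lie 7 to 44 bases from the annotated gene start. Counted from the start site, the Atg7 E-box begins at -132, those of Atg3 at -94 and -71, and that of Atg5 at -14. Ulk1 and Atg101, whose mean CPM was highest in the palmitic acid group, had none of the 3 motifs in these windows, and Atg3, at 18.3 to 25.7 CPM over the 9 libraries, had 2 E-boxes. A link between motifs and levels was not tested.

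Initiation and conjugation genes were set against each other within each library, as the mean of log2(FPKM + 0.5) over Ulk1, Atg13 and Atg101 minus that over the 6 conjugation genes. The difference was 1.07, 0.36 and 1.72 in control replicates 1, 2 and 3, 2.06, 1.44 and 1.72 with palmitic acid, and 0.72, 0.85 and 0.55 with palmitic acid + carnitine. The palmitic acid libraries were all above the carnitine libraries, and the controls spread over both. Group means were 1.05 ± 0.68, 1.74 ± 0.31 and 0.71 ± 0.15 (SD, n = 3 each). Without Atg7 they were 1.64 ± 0.60, 2.10 ± 0.25 and 1.25 ± 0.19, with palmitic acid again above carnitine in every library. No p is given for these means, since the genes were chosen with results known. Each side also held genes that did not follow it: Atg13 among the initiation genes, and Atg3, Atg5, Atg12 and Atg16l1 among the conjugation genes, whose log2 fold changes with palmitic acid lay between 0.04 and 0.47 beside -1.54 for Atg7. In the fit of unopposed genes those of Atg3, Atg5 and Atg12 turned below 0, between -0.26 and -0.21, and Atg16l1 stood at 0.18.

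**Figure D3:**
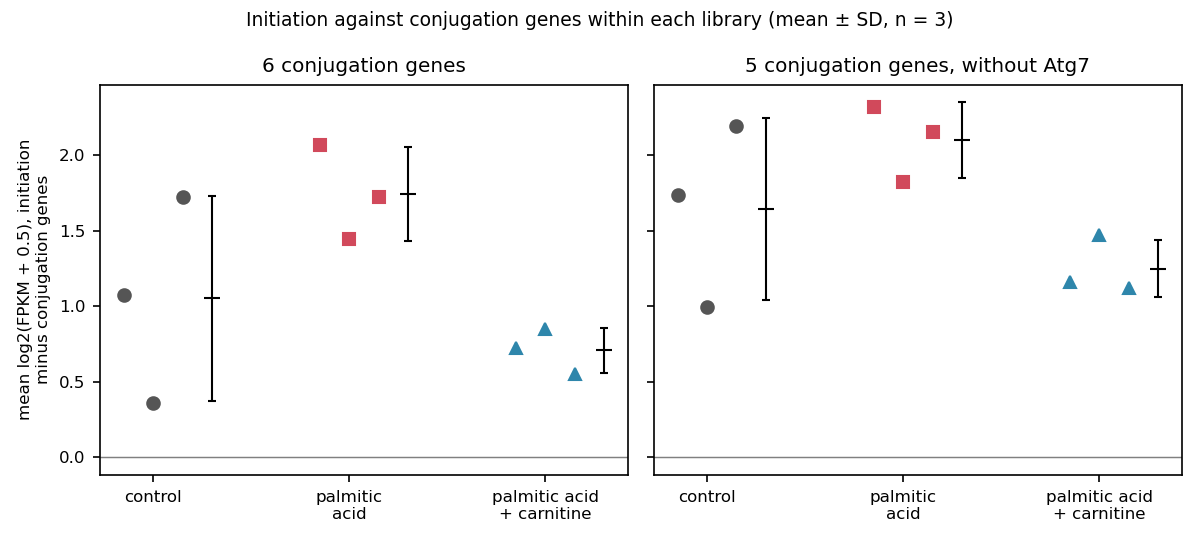
Mean log2(FPKM + 0.5) of 3 initiation genes minus that of the conjugation genes in each library, with all 6 conjugation genes (left) and without Atg7 (right), and mean ± SD (n = 3). The palmitic acid libraries lie at 1.44 to 2.06 and the carnitine libraries at 0.55 to 0.85 on the left, with no overlap, and the controls span 0.36 to 1.72.

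Palmitic acid against control asked how myotubes respond to the fatty acid. Of the 9 genes tested none was called by edgeR's quasi-likelihood test over all genes at an adjusted p under 0.05, where 0% of 12548 genes were called. At an unadjusted p under 0.05 there was 1 higher (Atg101) and 1 lower (Atg7), beside 5.67% of all genes higher and 13.9% lower. Atg101 and Atg16l1 were higher without overlap between the groups (11.7% of all genes tested) and Atg7 lower (10.9%). In all, 7 of the 9 were above 0, with a median log2 fold change of 0.08, beside 0.06 over all genes tested and 0.27 over unopposed protein-coding genes. Among unopposed genes fitted alone, 3 of 8 were above 0 and the median turned to -0.22. DESeq2 called Atg7 as lower, among 6.37% of the genes with an adjusted p (0.508% higher), and gave none to Atg101, Atg5, Atg12 and Atg10. When the fit held only unopposed genes, Atg7 was 1 of the 61 lower genes (1.03% of 5917, beside 0.0676% higher), at -1.87 ± 0.31, and Ulk1 and Atg101 stood at 0.35 ± 0.25 and 0.70 ± 0.34. Without control replicate 3, edgeR over all genes called Atg7 as lower at -1.88 ± 0.32, beside 4.64% of genes called lower. These calls are part of what the genes were chosen by, and nothing is read from them.

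Carnitine added to palmitic acid shares the palmitic acid libraries with that comparison, so opposite signs in the fold changes come in part from the same 3 libraries. Again 0 of 9 genes were called by edgeR over all genes, where 0% of 12548 passed. At an unadjusted p under 0.05 Atg7 was higher, beside 15.9% of all genes, and Atg101 and Ulk1 were lower, beside 8.34%. Atg7 was higher without overlap (20% of all genes), and Ulk1, Atg101 and Sqstm1 were lower without overlap (18.3%). The median over the 9 was 0.01, with 5 above 0, beside -0.10 over all genes and -0.34 over unopposed genes. With unopposed genes fitted alone, 6 of 8 were above 0, with a median of 0.40. DESeq2 called Atg7 as higher (11.6% of the genes with an adjusted p, beside 1.89% lower). It gave no adjusted p to Atg101, Atg5, Atg12, Atg16l1 and Atg10, so their lack of a call there is not a result. In the fit of unopposed genes Atg7 was called (1.56 ± 0.30, beside 0.913% of genes called higher and 0.0507% lower), and Atg101 at -1.40 ± 0.36 was not. Here too the genes were chosen with results known, and nothing is read from the calls.

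Palmitic acid + carnitine against control asked whether the treated myotubes differed from untreated ones. None of the 9 genes was called by edgeR, by DESeq2 or by limma on log2(FPKM + 1), and none had an unadjusted p under 0.05, beside 0.877% of all genes higher and 1.88% lower in edgeR and 0% called. The median log2 fold change was -0.12, beside -0.02 over all genes tested, and the values ran from -0.77 ± 0.39 for Atg101 to 0.48 ± 0.36 for Atg16l1. Atg3 was lower without overlap, beside 4.84% of all genes (3.69% were higher without overlap). With control replicate 3 and palmitic acid replicate 1 left out, again none of the 9 was called, beside 0.0081% of genes called higher and 0.0648% lower. The estimates moved, however: Atg7 was then at -0.66 ± 0.17 in place of -0.32 ± 0.37, and Ulk1 turned to 0.24 ± 0.29. Without control replicate 3 alone Atg7 was at -0.66 ± 0.32 and Ulk1 at 0.23 ± 0.34. A miss of the threshold does not show that the levels were equal: the standard errors of 0.24 to 0.64 leave room for sizeable differences in either direction.

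**Figure D4:**
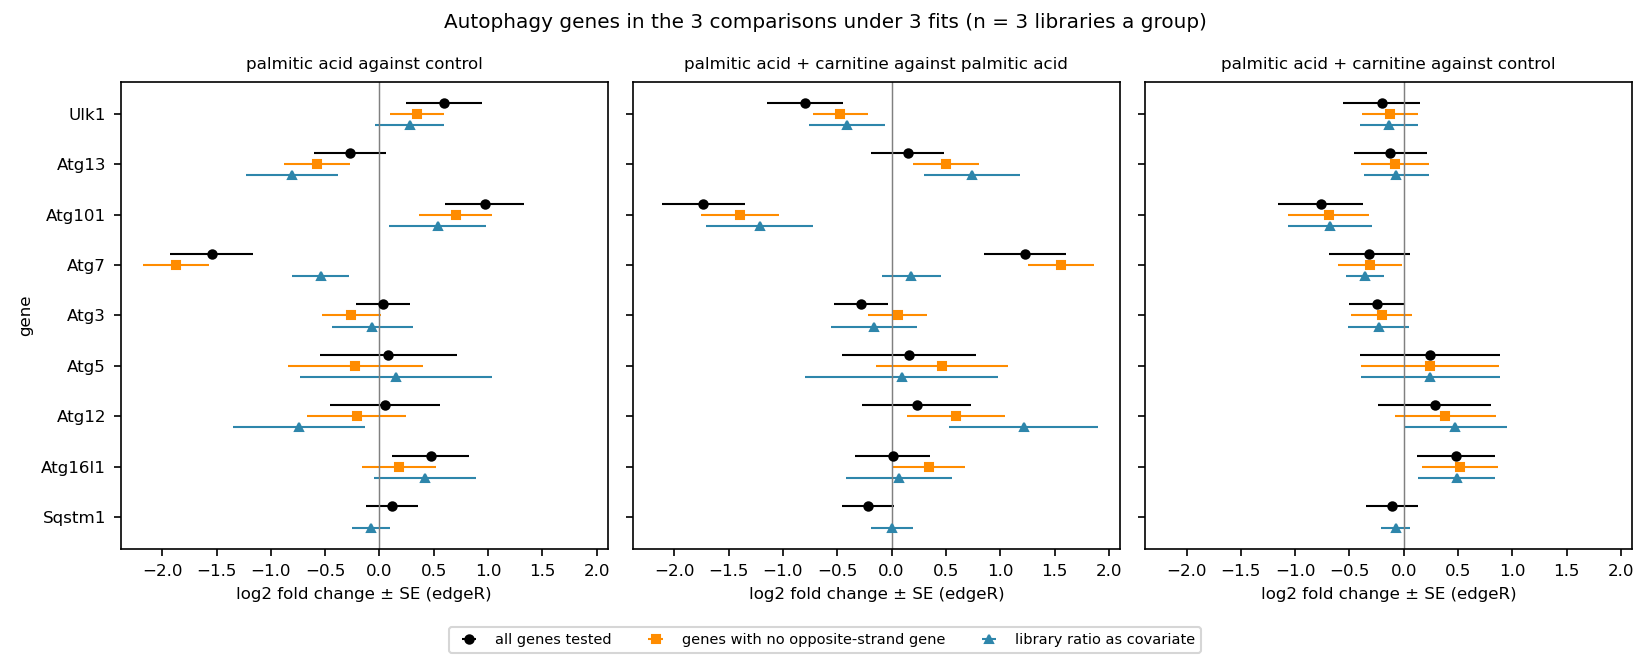
Log2 fold change ± SE (edgeR, n = 3 libraries a group) of the 9 tested genes in the 3 comparisons, fitted with all genes (circles), with unopposed genes alone (squares; Sqstm1 is not among them) and with the library's log2 sense-to-opposite ratio as a covariate (triangles). Atg7 goes from -1.54 to -0.54 with the covariate in the left panel, and from 1.23 to 0.18 in the middle one.

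The levels of 4 genes moved with the strand makeup of the library. The 4 libraries with a sense-to-opposite ratio above 1 were the 3 palmitic acid libraries and control replicate 3. Atg7 had 41.7 to 91.6 CPM in them and 119 to 252 in the other 5, and 15.4% of all genes tested were lower in those 4 libraries without overlap. Ulk1 had 64.0 to 74.8 against 20.6 to 49.4 CPM, Atg101 16.4 to 27.7 against 4.25 to 11.8, and Sqstm1 294 to 342 against 246 to 284, beside 9.91% of all genes higher without overlap. The other 6 genes overlapped. With the log2 ratio as a covariate, palmitic acid against control came to -0.54 ± 0.26 for Atg7, 0.53 ± 0.44 for Atg101 and 0.28 ± 0.32 for Ulk1, and carnitine added to palmitic acid to 0.18 ± 0.27, -1.21 ± 0.49 and -0.41 ± 0.35. The fitted ratio differs between the groups, so ratio and treatment cannot be told apart in these fits.

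**Figure D5:**
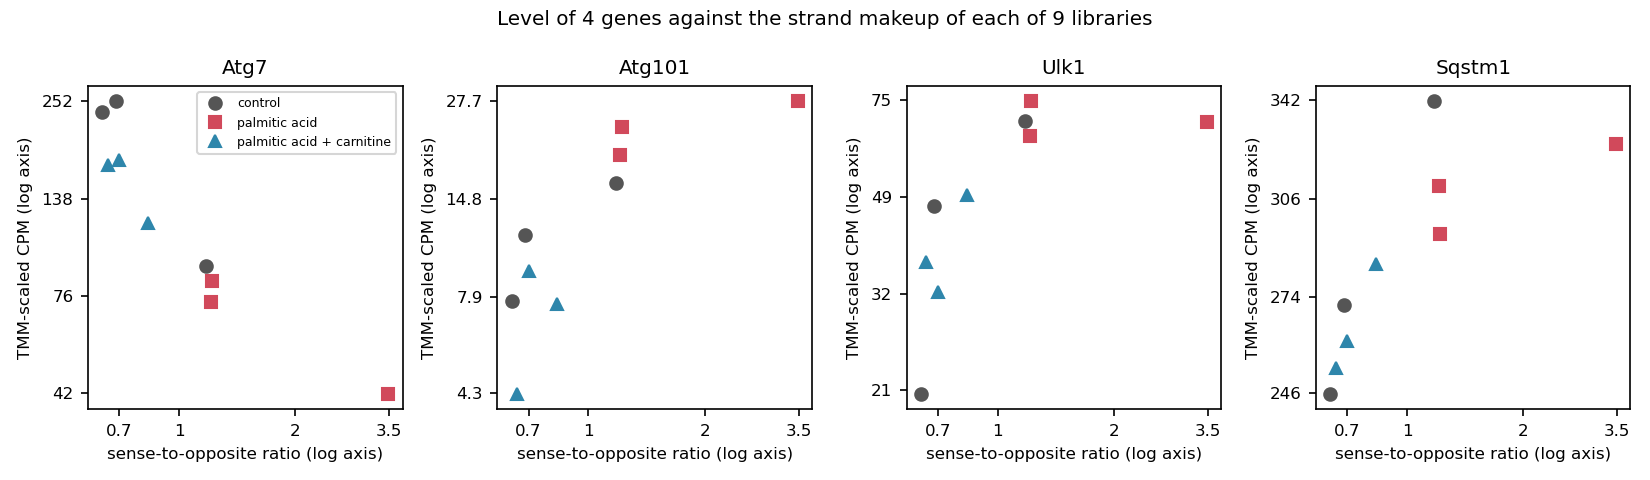
TMM-scaled CPM of Atg7, Atg101, Ulk1 and Sqstm1 (log axes) against the sense-to-opposite ratio (log axis) of each of the 9 libraries, by group. Control replicate 3, at a ratio of 1.18, lies beside palmitic acid replicates 2 and 3 for Atg7, and palmitic acid replicate 1, at 3.48, has the lowest Atg7 level and the highest Atg101 level.

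Libraries of like ratio can be read side by side. Control replicate 3 (ratio 1.18) and palmitic acid replicates 2 and 3 (1.21 and 1.22) had 91.6 against 73.4 and 83.7 CPM of Atg7, and 68.3 against 64.0 and 74.8 of Ulk1. For Atg101 these libraries had 16.4 against 19.7 and 23.5 CPM, and for Sqstm1 342 against 310 and 294. At low ratios, control replicates 1 and 2 (0.685 and 0.633) and palmitic acid + carnitine replicates 2 and 3 (0.653 and 0.701) had 252 and 235 against 170 and 175 CPM of Atg7. The Atg101 values there were 11.8 and 7.72 against 4.25 and 9.34 CPM. A fit without control replicate 3 and palmitic acid replicate 1, added after seeing the data, is not matched in ratio. It sets palmitic acid libraries at 1.21 and 1.22 against controls at 0.685 and 0.633, so ratio and treatment cannot be told apart. There edgeR called Atg7 as lower and Ulk1 as higher with palmitic acid (-1.63 ± 0.19 and 1.05 ± 0.30). In that fit 13% of all genes were called lower and 6.18% higher. Carnitine added to palmitic acid gave calls in the same fit for Atg7 (0.97 ± 0.17, beside 11% called higher), Atg101 (-1.60 ± 0.42) and Ulk1 (-0.81 ± 0.26, beside 2.62% called lower). Nothing is read from these calls.

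The other autophagy genes were taken from a list of 54 by role, of which 53 were tested (Atg4a had too few counts), 28 of them in the fit of unopposed genes. None of the 53 passed in edgeR over all genes in any of the 3 comparisons, where 0% of genes did. With palmitic acid 41 of 53 were above 0, with a median log2 fold change of 0.25, beside 0.06 over all genes tested and 0.27 over unopposed genes. In the fit of unopposed genes 11 of 28 were above 0, with a median of -0.04. That fit differs both in its scaling and in the genes it holds. At an unadjusted p under 0.05, 3 of the 53 were higher and 0 lower, beside 5.67% of all genes higher and 13.9% lower. Mtor, the kinase that restrains Ulk1, had 21.3 ± 6.01 CPM in control libraries and 46.5 ± 4.77 with palmitic acid (n = 3 each, edgeR adjusted p = 0.139) and was the 1 gene of the list that DESeq2 called. DESeq2 gave an adjusted p to 34 genes of the list. Of all genes with an adjusted p it called 0.508% higher and 6.37% lower. Atg2a, a lipid transfer protein of the growing membrane, had 24.9 ± 3.82 and 44.3 ± 4.42 CPM (n = 3 each, edgeR adjusted p = 0.157). Gabarapl2, an LC3 relative that Atg7 and Atg3 conjugate, had 12.4 ± 2.21 and 22.5 ± 5.89 CPM (n = 3 each, edgeR adjusted p = 0.196). Atg4d, a protease of the LC3 family whose exons lie opposite Kri1, had 455 ± 89.7 CPM in control libraries and 266 ± 137 with palmitic acid. Its exons overlap those of Kri1 by 1405 bases, with 10495 counts for Atg4d and 1905 for Kri1. Whether reads from the Kri1 strand were counted toward Atg4d was not tested.

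With carnitine added to palmitic acid, 43 of the 53 were below 0, with a median of -0.36, beside -0.10 over all genes tested and -0.34 over unopposed genes. Fitted with unopposed genes alone, 19 of 28 were below 0, with a median of -0.17. At an unadjusted p under 0.05, 1 of the 53 was higher and 9 were lower, beside 15.9% of all genes higher and 8.34% lower. Wipi2, which binds phosphatidylinositol 3-phosphate and recruits Atg16l1, had 53.1 ± 9.02 CPM with palmitic acid and 29.7 ± 2.42 with carnitine (n = 3 each, edgeR adjusted p = 0.125), and DESeq2 called it as lower. In this comparison DESeq2 gave an adjusted p to 33 genes of the list. Of all genes with an adjusted p it called 11.6% higher and 1.89% lower. Mtor had 26.2 ± 6.09 CPM with carnitine (edgeR adjusted p = 0.136), and Rptor, its partner in mTORC1, had 97.6 ± 7.82 and 59.3 ± 6.28 (n = 3 each, edgeR adjusted p = 0.150). Atg4d was the 1 higher gene, at 508 ± 29.4 CPM with carnitine. Between palmitic acid + carnitine and control, Wipi2, the LC3 relative Gabarapl1 and the fusion factor gene Epg5 were the 3 of 53 with an unadjusted p under 0.05, all lower, beside 1.88% of all genes, at log2 fold changes of -0.66 ± 0.25, -0.78 ± 0.30 and -0.99 ± 0.45. Becn1, of the lipid kinase complex and opposite Cntd1, was at 37.5 ± 4.70, 50.6 ± 4.51 and 39.4 ± 4.46 CPM in control libraries, palmitic acid and palmitic acid + carnitine (n = 3 each). Map1lc3b, the LC3 gene most used as an autophagosome marker and opposite Zcchc14, was at 51.3 ± 4.39, 59.4 ± 11.2 and 43.1 ± 5.16 CPM (n = 3 each). Over the 9 libraries Becn1 had 1342 counts beside 15955 for Cntd1, and Map1lc3b 1648 beside 1385 for Zcchc14. Gabarapl1 had 648 beside 8855 for 1700101I11Rik, and Rptor 2476 beside 2909 for Rptoros, each partner lying opposite exons of the gene. Whether reads from the other strand were counted toward these genes was not tested. By role, the medians with palmitic acid ran from -0.09 for fusion genes to 0.33 for membrane expansion genes, beside 0.59 for the 3 initiation genes and 0.05 for the 5 conjugation genes tested. In the fit of unopposed genes the initiation median was 0.35, and the conjugation median turned to -0.22 with 1 of 5 above 0 in place of 4. With carnitine added they ran from -0.64 for the other initiation genes (Ulk2, Rb1cc1 and Atg9a) to -0.19 for the other cargo receptors, beside -0.80 for the initiation and 0.16 for the conjugation genes, which were -0.47 and 0.47 in the fit of unopposed genes.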

How the data were processed

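The deposited table holds raw counts per gene and FPKM for each of 9 samples, per the file headers. Tools listed in the submitters' processing notes are HISAT2 2.2.0 and Bowtie2 2.4.2 (aligners), HTSeq 0.13.5 (a counter), Trim Galore 0.6.4 (a trimmer) and edgeR. Builds listed are GRCm39, GRCh38 and Rnor_6.0, of which GRCm39 is the mouse build. The strand setting of the counting is not given in the sources used here. The FPKM values that the authors deposited use each sample's own count total, and all per-sample columns were mapped to samples by title. Reads shared between overlapping genes may have been split or dropped.

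Counts were fitted with edgeR 4.0.16 in R 4.3.3 (TMM, filterByExpr with a minimum count of 10 and total of 15, glmQLFit, glmQLFTest, group as the sole factor, all 9 samples), with two-sided p-values, adjusted by Benjamini-Hochberg over 12548 tested genes and called below 0.05. DESeq2 1.42.0 and limma 3.58.1 were alternatives. CPM are TMM-scaled and Pearson's r used log2 CPM with a prior count of 2. Strand relations came from GENCODE M21 (GRCm38), joined by gene ID for 22506 of 22831 genes: 9523 protein-coding genes are unopposed, with exons that face no annotated gene, and 1711 noncoding genes lie opposite protein-coding exons by at least 100 bases. The fit was also run on counts simulated without a shift in strand makeup between libraries. That run says nothing of how the fit behaves under such a shift.

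The genes, lists, motifs and alternatives were chosen with earlier results of these data known. Named were the 10 genes, other pathway genes by smallest p or named beforehand, opposite-strand genes, and for Atg7 and Sqstm1 the 5 genes with the highest r. Vgll4, Mrnip and the cell type markers that are singled out were named after their values were seen.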

Additional observations from a re-analysis of the deposited data

How the results depend on the processing

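Counts of called genes depended on the processing in the first 2 comparisons, from 0 in the fit reported. For palmitic acid against control they were 474 with DESeq2, 1118 without a filter on low counts, 1 with limma on log2(FPKM + 0.1) and 65 among unopposed genes. Leaving out 1 library gave 0 to 768, the highest without control replicate 3, when Atg7 was called. Added after seeing the data, leaving out that library and palmitic acid replicate 1 gave 2369, and among unopposed genes there were 23 without palmitic acid replicate 1 and 187 without control replicate 3, Atg7 called each time. For carnitine added to palmitic acid the counts were 873, 1366 and 3 with the first 3 alternatives, 1 with limma on log2(FPKM + 1), 57 among unopposed genes and 0 to 6 leaving out 1 library. They were 1685, 25 and 110 with the added alternatives. For palmitic acid + carnitine against control they were 5 without a filter, 0 with 1 library left out and 9 without both libraries. Without a filter Atg7 was called in the first 2 comparisons and Atg101 in the second. In the second comparison each added alternative called Atg7. Atg101 was also called there without both libraries and among unopposed genes without control replicate 3. Ulk1 was called in the first 2 comparisons without both libraries. The share of all genes called is not given for the fits without a filter or the added fits of unopposed genes, so nothing is read from these calls. The cause of the moves in the counts was not tested.

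No pairing of the libraries by replicate number was seen, in a check that is weak with 3 libraries a group. Deviations from the group means of same-numbered libraries correlated at -0.39 to 0.26, over 0.1 in 4 of 9 pairs, and 7 of 18 best matches had the same number. The labels do not say whether same-numbered libraries share a culture or batch. With the replicate block 0 genes were called in each comparison. The initiation minus conjugation differences between groups stayed within 1 SD of 0.69, -1.04 and -0.34 under every alternative run. This is a wide margin: the control SD was 0.68 (n = 3), about as large as 0.69 and larger in size than -0.34. Staying within it does not show that a difference held. Signs of log2 fold changes differed from the fit reported in 57 of 579 recomputed values, in Atg3, Atg5, Atg12, Atg13, Atg16l1, Sqstm1 and Ulk1 and never in Atg7 or Atg101. Depth limited Atg5, Atg10 and Atg12 most.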
